A study of Mus musculus with 2 samples.

Results

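Myocardin, serum response factor and some of the transcription factors around them help to set whether a vascular smooth muscle cell (VSMC) looks contractile or modulated in culture. The 10 genes described here were chosen by name and not by their values: Myocd, Srf, Klf4, Klf5, Klf2, Tcf21, Tead1, Mef2c, Foxs1 and Mybl1. They are 10 of the 31053 genes counted, and all 10 passed the filter on low counts. Both libraries came from primary VSMCs of wild-type mouse aorta that had grown for 5 days at 37 °C, under 6% CO2 and in full medium. They were labelled biological replicate 1 and biological replicate 2, and no treatment or second genotype was compared. The cells were released with trypsin/EDTA, and 10000 live cells of each culture were loaded for 3' single-cell sequencing (10x Genomics, v3).

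Myocardin is a coactivator with no DNA binding of its own. It binds serum response factor (SRF), a protein of nearly all cells, and the pair activates contractile genes through a short element called the CArG box, while SRF bound to ETS factors serves immediate early genes instead. KLF4 is known as a repressor of myocardin and of contractile genes, KLF5 goes with growth of modulated cells, and KLF2 is best known as a flow-responsive factor of endothelium. TEF-1 (Tead1) carries YAP and TAZ to DNA, MEF2C is a muscle and endothelial activator, and TCF21 marks fibroblast-like cells in development and disease. FOXS1 is a forkhead factor of perivascular cells, and A-MYB (Mybl1) is a member of the MYB family.

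The CArG boxes are shown because they are the sequence link between Srf and its targets. Promoters of 300 bases, from 250 before to 50 after the start, were available from RefSeq (GRCm38.p6) for 27025 genes, among them 5 of the 10 factors (Srf, Klf4, Klf2, Tcf21 and Mef2c). A CArG box, searched on both strands with no mismatch, was found in 1.81% of all these promoters, in 1 of the 5 factor promoters, in 3 of 16 promoters of contractile SRF target genes and in 1 of 5 promoters of growth-type (immediate early) targets. A gene with several starts had a window for each and was counted once. Srf itself had 2 boxes in its 1 window, and Egr2 had 2 in windows of different starts. Capitals mark the box, and each run is written in the direction of the gene.
Srf, minus strand, chr17:46556225-46556254: ctggggctcgCCATATAAGGagcggcctcg
Srf, minus strand, chr17:46556205-46556234: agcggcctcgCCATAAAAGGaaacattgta
Myl9, plus strand, chr2:156775293-156775322: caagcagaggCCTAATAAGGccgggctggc
Vcl, plus strand, chr14:20929161-20929190: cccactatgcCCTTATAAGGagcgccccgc
Filip1l, plus strand, chr16:57549170-57549199: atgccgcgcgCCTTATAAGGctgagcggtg
Egr2, plus strand, chr10:67537484-67537513: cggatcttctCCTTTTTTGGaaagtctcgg
Egr2, plus strand, chr10:67537787-67537816: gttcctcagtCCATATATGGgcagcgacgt
These letters describe the windows and do not show that SRF was bound there. Boxes with a mismatch or outside the windows were not searched for, so a gene not printed is not shown to lack one.

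The second motif that bears on the results is the core of the TEAD site, GGAATG, searched on both strands. It was found in 16.6% of all promoters, in 7 of 16 contractile promoters (Acta2, Cald1, Lmod1, Mylk, Smtn, Tpm1 and Vcl) and in all 7 promoters available for YAP and TEAD target genes. Printed are the site of Acta2, which was not called higher beside Tead1, and the sites of targets that were. The motif is in capitals, in whichever direction it was found.
Acta2, minus strand, chr19:34255504-34255529: gcagaacagaGGAATGcagtggaaga
Vcl, plus strand, chr14:20929245-20929270: ccctcccttgGGAATGggggcggggc
Tpm1, minus strand, chr9:67049254-67049279: gctgtcctaaGGAATGcggtcgcccc
Amotl2, plus strand, chr9:102717729-102717754: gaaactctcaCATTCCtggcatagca
Ankrd1, minus strand, chr19:36120039-36120064: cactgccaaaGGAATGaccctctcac
Ankrd1, minus strand, chr19:36119952-36119977: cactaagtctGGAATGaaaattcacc
Crim1, plus strand, chr17:78200159-78200184: ggcgggggggGGAATGaggtaggatg
Lats2, minus strand, chr14:57746104-57746129: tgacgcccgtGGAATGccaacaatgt
Of the other motifs, also searched on both strands, the KLF motif CCACCC was in 34.0% of all promoters and 8 of 16 contractile ones, the E-box CAGCTG in 18.3% and 4 of 16, and the MEF2 motif in 3.70% and 2 of 16.

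In the GENCODE M21 annotation of GRCm38, the genes lie on different chromosomes or far apart. Myocd is at chr11:65176561-65269989 (minus strand), Srf at chr17:46548329-46556175 (minus), Klf4 at chr4:55527143-55532466 (minus), Klf5 at chr14:99298691-99315036 (plus) and Klf2 at chr8:72319033-72321656 (plus). Tcf21 is at chr10:22817281-22820174 (minus), Tead1 at chr7:112679318-112906807 (plus), Mef2c at chr13:83504034-83667080 (plus), Foxs1 at chr2:152931898-152933208 (minus) and Mybl1 at chr1:9667415-9700209 (minus). Srf and Tcf21 each overlap 1 other counted gene on the opposite strand.

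After removal of barcodes with under 300 genes, under 3000 UMIs (unique molecular identifiers, 1 per captured mRNA) or 20% or more mitochondrial UMIs, 4866 cells of replicate 1 and 6824 of replicate 2 remained, with median depths of 22234.5 and 16310 UMIs. The libraries shared 9 cell barcodes. Cells were put in classes by fixed genes. Endothelial cells had at least 2 UMIs of 2 or more of Pecam1, Cdh5, Cldn5 and Gja4 (102 and 141 cells). Cycling cells had at least 2 UMIs of 3 or more of 6 cell cycle genes (1508 and 1757 cells). Of the remainder, Myh11-high cells had at least 5 UMIs of Myh11, the smooth muscle myosin heavy chain (314 and 557 cells), and Myh11-low cells at most 1 (2710 and 4080 cells). These Myh11 classes are ranges of 1 gene and not cell types: of the 314 and 557 Myh11-high cells, 21 and 50 had exactly 5 Myh11 UMIs, and a further 52 and 70 cells in no class had 4. The labelled cell type was checked against contractile genes. The 20 listed contractile genes summed to 40635 and 38724 CPM (a gene's share of the UMIs of a sum, scaled as usual for count data) in Myh11-high cells against 13663 and 7745 in Myh11-low cells. Myh11, the gene of the gate, is among the 20, so part of this gap follows from the gate. The 8 endothelial markers outside the gate summed to 2670 and 3003 CPM in endothelial cells. Most cells carried little Myh11.

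Levels below are CPM of UMIs summed over the cells of a class in 1 library, given as mean ± SD of the 2 libraries (n = 2). With 2 libraries a permutation of single values cannot give a p below 0.33, so tests come from edgeR fits across all genes, with Benjamini-Hochberg adjustment. The sums of 1 library come from 1 culture, so each fit was also made with the library as a block, whose value stands beside any call that it alters.

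**Figure D1:**
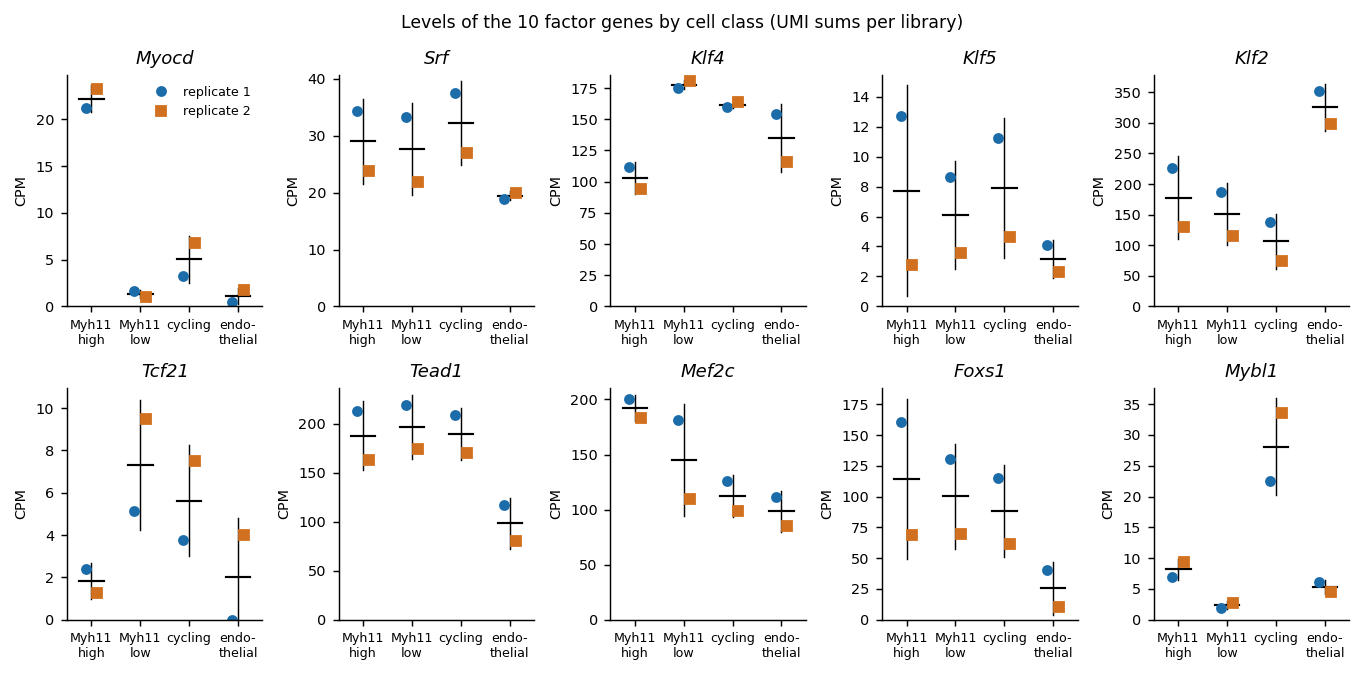
CPM of each of the 10 genes (vertical axis, linear, starting at 0) in the 4 cell classes (horizontal axis). Circles are replicate 1, squares replicate 2, horizontal bars their mean and vertical lines ± 1 SD, cut off at 0; Myocd stood at 21.2 and 23.2 CPM in Myh11-high cells and at most 6.80 elsewhere, while Mybl1 was highest in cycling cells.

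Myocd, the coactivator, was the gene most sharply tied to Myh11. In Myh11-high cells it reached 21.2 CPM in replicate 1 and 23.2 CPM in replicate 2, against 1.67 and 1.00 CPM in Myh11-low cells, 3.25 and 6.80 in cycling cells and 0.51 and 1.71 in endothelial cells. Myh11-high cells were far above every other class in both libraries, with no overlap. The order was 22.2 ± 1.41 in Myh11-high, 5.02 ± 2.51 in cycling, 1.33 ± 0.47 in Myh11-low and 1.11 ± 0.85 in endothelial cells, and the last 2 did not differ beyond their spread. Between Myh11-high and Myh11-low cells Myocd differed by a log2 fold change of 4.14 (SE 0.47, adjusted p = 0.0118, edgeR quasi-likelihood test), and it passed the threshold in all 9 alternative fits that gave a test (adjusted p up to 0.0137). In this comparison 3.13% of all genes passed.

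A Myocd UMI was seen in 25.2% of Myh11-high cells of replicate 1 (95% exact interval 20.5 to 30.3%) and 34.1% of those of replicate 2 (30.2 to 38.2%). The share was 2.95% and 1.37% in Myh11-low cells and 0.980% and 2.13% in endothelial cells, a class that should lack the gene. Thinned to 3000 UMIs per cell, the shares were 6.03% and 7.18% in Myh11-high, 0.560% and 0.371% in Myh11-low and 0.177% and 0.243% in endothelial cells. The thinned shares of Myh11-low cells lay slightly above the endothelial ones, which rest on few cells. Free RNA in nearly empty droplets (1 to 100 UMIs) gave an expected 1.70 and 0.515 CPM in Myh11-low cells, against 1.67 and 1.00 measured, so Myocd there did not exceed this rough estimate in replicate 1 and did in replicate 2. Intervals cover counting error only.

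Within the non-cycling, non-endothelial cells the Myocd level followed the Myh11 count step by step. From cells with 0, 1, 2 to 4, 5 to 9, 10 to 19 and 20 or more Myh11 UMIs it was 1.31, 4.14, 5.95, 10.3, 14 and 38.4 CPM in replicate 1. In replicate 2 the same bins held 0.84, 2.91, 9.97, 17.5, 27.2 and 28.1 CPM. It rose at each step in both libraries, and the top bin rested on 95 and 83 cells. Deeper cells have more Myh11 UMIs, so depth and Myh11 level are mixed in these bins. With the gate set in CPM per cell instead (at least 300 against at most 50), Myocd still passed the test.

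**Figure D2:**
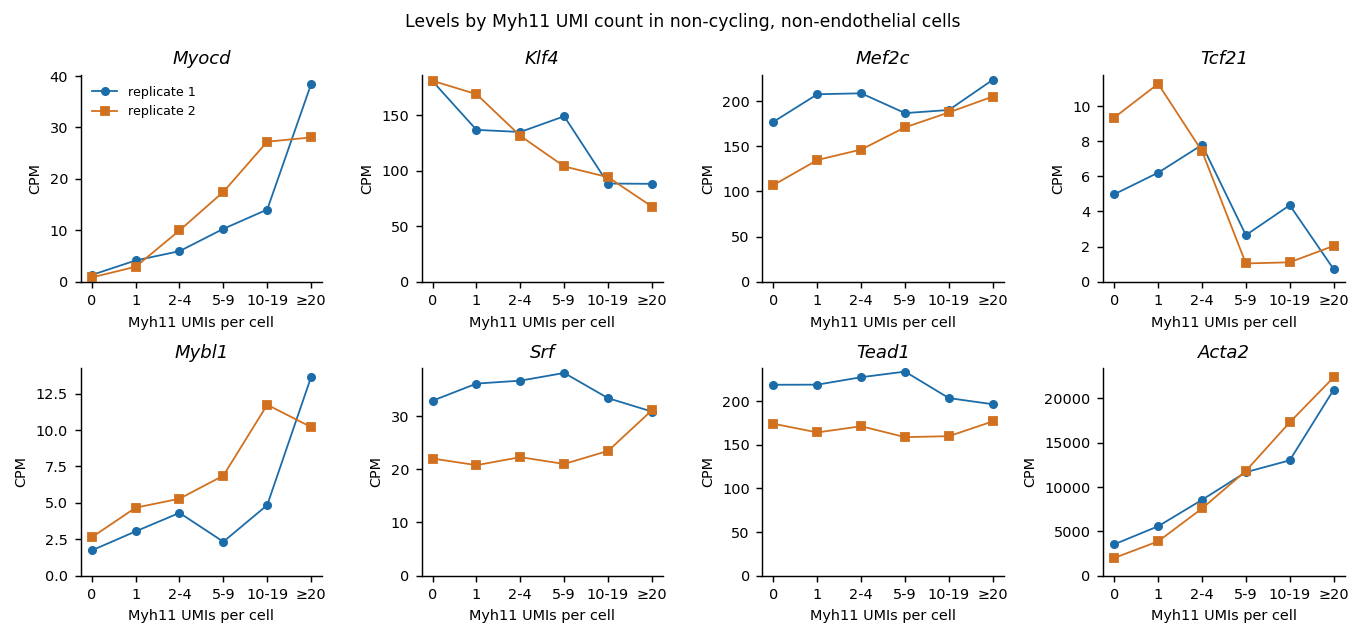
CPM (vertical axes, linear, starting at 0) of 7 of the genes and of Acta2, smooth muscle actin, in non-cycling, non-endothelial cells binned by their number of Myh11 UMIs (horizontal axes). Each point is 1 library's sum over a bin, circles replicate 1 and squares replicate 2; Myocd rose from 1.31 to 38.4 and from 0.84 to 28.1 CPM, Klf4 went from 181 CPM in both to 88.3 and 67.9, and Tead1 stayed between 159 and 234 CPM.

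Klf4, the repressor, showed the opposite pattern. It stood at 112 and 93.9 CPM in Myh11-high cells, 175 and 180 in Myh11-low cells, 160 and 164 in cycling cells and 154 and 116 in endothelial cells. Myh11-high cells were the lowest class in both libraries and did not overlap with Myh11-low cells. The order was Myh11-low (178 ± 3.47), cycling (162 ± 2.54), endothelial (135 ± 27.2) and Myh11-high (103 ± 12.7). No neighbours in it overlapped, though the endothelial and cycling means differed by less than the endothelial SD. Klf4 differed by -0.71 on the log2 scale between Myh11-high and Myh11-low cells (SE 0.16), which missed the threshold without the block (adjusted p = 0.0749) and passed it with the library as block (adjusted p = 0.00405, edgeR). Over the 9 alternatives its adjusted p ran from 0.00403 to 0.101, and 4 were under 0.05. Across the Myh11 bins it started at 181 CPM in both libraries and ended at 88.3 and 67.9.

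Myocd and Klf4 kept these positions among dividing cells. Cycling cells with at least 5 Myh11 UMIs (159 and 322 cells) held 19.6 and 24.9 CPM of Myocd, and cycling cells with at most 1 (1244 and 1282 cells) held 0.86 and 1.04. Klf4 stood at 103 and 96.4 CPM in the former and 171 and 187 in the latter. Neither gene overlapped between the sets. The log2 fold change among cycling cells was 4.57 for Myocd (SE 0.32, adjusted p = 0.00339) and -0.83 for Klf4 (SE 0.12, adjusted p = 0.0308, edgeR), and both passed in all 9 alternatives. They were 2 of the 10 factors, where 1.86% of all genes passed. The difference between cycling and non-cycling cells in the effect of Myh11 class was tested as an interaction. In edgeR 0% of genes passed, without and with the block (95 and 528, in that order, at an unadjusted p under 0.05). DESeq2 called 1 gene, Brip1, which is named here after its value was seen.

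Mybl1 followed both the cell cycle and Myh11. It was at 22.5 and 33.6 CPM in cycling cells, 6.99 and 9.39 in Myh11-high, 1.89 and 2.79 in Myh11-low and 6.11 and 4.57 in endothelial cells. Cycling cells were highest and Myh11-low cells lowest in both libraries, and the order cycling (28.1 ± 7.84), Myh11-high (8.19 ± 1.70), endothelial (5.34 ± 1.09), Myh11-low (2.34 ± 0.64) had no overlap between neighbours. Cycling cells exceeded Myh11-low cells by 3.56 on the log2 scale (SE 0.30, adjusted p = 0.000816), in a comparison where 5.10% of all genes passed. Mybl1 was the 1 factor of 10 that passed there. With the block in edgeR it was joined by Myocd (adjusted p = 0.0118) and by Klf2, lower (adjusted p = 0.0278), against 22.2% of all genes. Of the 151 and 269 Myocd UMIs of cycling cells, 108 and 203 lay in cells with at least 5 Myh11 UMIs. Cycling cells with at most 1 held 0.86 and 1.04 CPM of Myocd, against 1.67 and 1.00 in Myh11-low cells.

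Between non-cycling Myh11-high and Myh11-low cells, Mybl1 differed by 1.90 (SE 0.30, adjusted p = 0.0283, edgeR) and passed in all 9 alternatives (adjusted p up to 0.0379). Both classes were set by few UMIs of the 6 cycling genes, so low levels of these follow from the gate. Mki67 stood at 9.03 and 14.3 CPM in the Myh11-high cells and 13.9 in both Myh11-low sums, Top2a at 15.0 and 13.3 against 14.4 and 13.4, and Birc5 at 9.79 and 14.7 against 24.4 and 25.4. The part of cells in cycle that the gate missed was not tested by these genes. With a stricter removal of cycling cells (2 of the 6 genes enough), the Mybl1 difference was 1.99 with an adjusted p of 0.0212. Among cycling cells Mybl1 was 44.0 and 63.2 CPM with high Myh11 against 20.1 and 24.3 with low Myh11, again without overlap. That difference of 1.28 (SE 0.26) missed the threshold (adjusted p = 0.0725) and passed with the block (adjusted p = 0.000485).

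Mef2c was 201 and 184 CPM in Myh11-high cells, 181 and 109 in Myh11-low, 126 and 98.5 in cycling and 112 and 85.1 in endothelial cells. The class means ran 192 ± 12.2, 145 ± 50.7, 112 ± 19.2 and 98.3 ± 18.7, and only the first and second did not overlap. The Myh11-high against Myh11-low difference was 0.48 (SE 0.27, adjusted p = 0.425) and 0.53 with the block (adjusted p = 0.0295). Replicate 2 carried this difference between non-cycling classes: the ratio was 1.68 there and 1.11 in replicate 1. Among cycling cells Mef2c was 158 and 134 CPM with high Myh11 against 120 and 85.1 with low Myh11, without overlap. Over the 9 alternatives (edgeR or DESeq2) the adjusted p among cycling cells ran from 0.0486 to 0.554, and 1 was under 0.05. In the Myh11 bins of replicate 2 Mef2c went from 107 to 205 CPM without a break, whereas replicate 1 went from 177 to 224 with a dip at 5 to 9 UMIs.

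Tcf21 was scarce, at 2.42 and 1.24 CPM in Myh11-high, 5.13 and 9.50 in Myh11-low, 3.78 and 7.48 in cycling and 0 and 4.0 in endothelial cells. Myh11-low and cycling cells were each above Myh11-high cells without overlap, but all neighbours in the order of class means overlapped. The Myh11-high values rested on 19 and 14 UMIs, and free RNA gave an expected 1.06 and 1.03 CPM there. No Tcf21 UMI was seen in 102 endothelial cells of replicate 1, which allows a share of cells with a UMI of up to 2.94% by a floor of 3 counts (3.55% by the exact 95% interval); for so scarce a gene this says little about how many cells express it. The Myh11-high against Myh11-low difference of -1.94 (SE 0.76) missed the threshold (adjusted p = 0.242) and passed with the block (adjusted p = 0.0198). Thinned to 3000 UMIs, 0.646% and 0.287% of Myh11-high cells and 1.37% and 1.95% of Myh11-low cells would show a Tcf21 UMI.

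Srf, Tead1, Klf2, Klf5 and Foxs1 did not pass between Myh11-high and Myh11-low cells in either fit. Srf was 34.3 and 23.8 CPM in Myh11-high against 33.3 and 21.9 in Myh11-low cells, a difference of 0.15 (SE 0.29, adjusted p = 0.855). The libraries thus differed more than the classes. Tead1 was 213 and 163 against 219 and 174 CPM, a difference of 0.02 (SE 0.24, adjusted p = 0.987) whose sign turned under some settings. Klf2 differed by 0.31 (SE 0.40), Klf5 by 0.39 (SE 0.79) and Foxs1 by 0.27 (SE 0.64). In all, 2 of the 10 factors passed without the block, and 5 of 10 passed with it (Myocd, Mybl1 and Mef2c higher, Klf4 and Tcf21 lower), where 22.7% of all genes did.

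Several of these genes differed between the libraries. Over all cells replicate 1 exceeded replicate 2 by 2.58-fold for Klf5, 1.91-fold for Foxs1, 1.68-fold for Klf2, 1.47-fold for Srf and 1.41-fold for Mef2c. Myocd (0.71) and Tcf21 (0.56) lay the other way, and Klf4 lay at 0.99. The direction for Myocd and Tcf21 depended on class. In Myh11-high, Myh11-low and cycling cells the ratio was 0.91, 1.67 and 0.48 for Myocd and 1.95, 0.54 and 0.51 for Tcf21. Class shares differed too, with 6.45% and 8.16% Myh11-high cells in replicates 1 and 2. The part of class shares in these ratios was not tested. Growth-type SRF targets were higher in replicate 1, with 2532 and 1745 CPM in the Myh11-low cells and 1803 and 919 in the Myh11-high cells of replicates 1 and 2. With 1 culture per library, culture, handling and sequencing cannot be told apart.

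In endothelial cells the pattern of the factors was different. Tead1 was lower, at 117 and 80.0 CPM against 163 to 219 in the other classes, with no overlap and a log2 fold change of -1.16 (SE 0.22, adjusted p = 0.0104, edgeR); it passed in all 8 alternatives. Myocd also passed (-2.49, SE 0.71, adjusted p = 0.0441) but not with the block (adjusted p = 0.0916), and its contrast is with a mean that holds the Myh11-high cells. In this comparison 24.0% of all genes passed, so 2 of 10 factors is no more than the background. With the block, where 37.0% of all genes passed, 6 of 10 did.

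Those 6 were Tead1, Foxs1, Mef2c, Srf and Klf5, lower, and Klf2, higher. Klf2 stood at 353 and 298 CPM in endothelial cells, against 74.4 to 226 in the other classes, the highest class in each library (log2 fold change 0.99, SE 0.32, adjusted p = 0.0645, and 0.00037 with the block). Foxs1 was lowest there, at 40.8 and 10.3 CPM against 61.7 to 161 (-2.17, SE 0.66, adjusted p = 0.0547, and 9.4e-05 with the block). A Foxs1 UMI was seen in 14.7% and 4.26% of endothelial cells and in 79.6% and 53.3% of Myh11-high cells. Endothelial KLF target genes went both ways without the block: of 8 listed, Palmd, Nos3 and Slc9a3r2 were higher and Cyp1b1 was lower, and of the TEAD family and its cofactors Wwtr1 (TAZ), Vgll4, Tead4 and Tead2 were higher while Vgll3 and Tead3 were lower. Without composition scaling the share of higher calls in this comparison was 70.2% in place of 49.3%, with the median of all genes moving from -0.086 to 0.12.

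**Figure D3:**
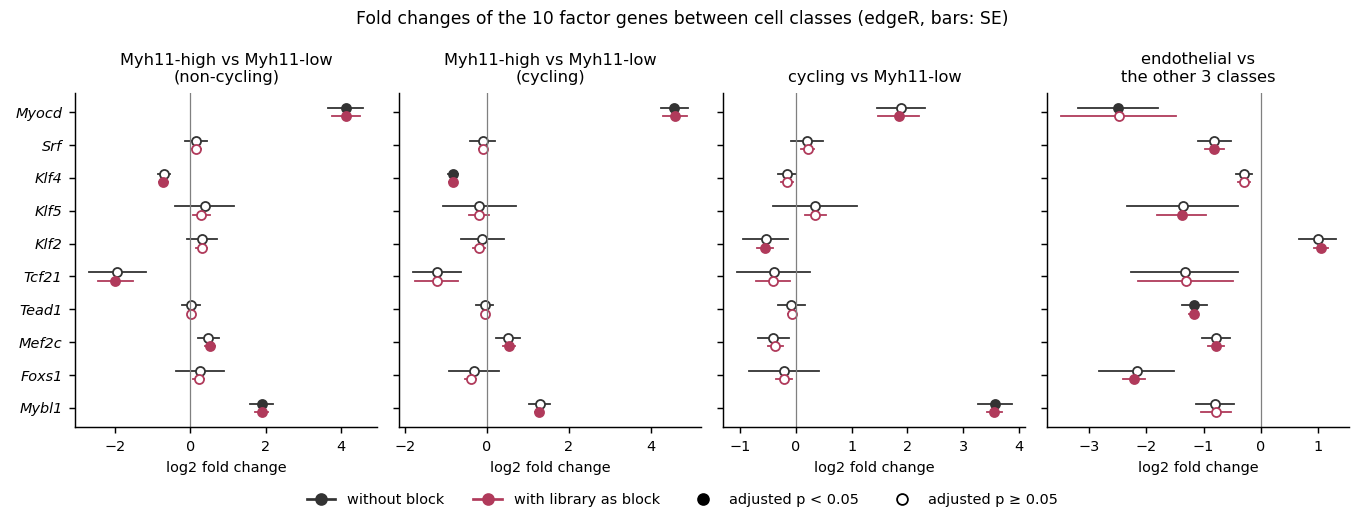
Log2 fold change (horizontal axes) of each of the 10 genes (rows) in 4 comparisons, with bars of ± 1 SE, for the fit without a block (grey) and with the library as block (red). Filled points had an adjusted p under 0.05; Myocd was at 4.14 and 4.57 in the Myh11 comparisons and Mybl1 at 3.56 between cycling and Myh11-low cells.

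The targets of these factors were described next, by lists. Of 19 contractile SRF targets tested between Myh11-high and Myh11-low cells, 9 were higher and none lower, all 19 had a positive value, and the median log2 fold change was 2.13 against -0.029 over all genes. With the block all 19 passed. The 9 were Kcnmb1, a potassium channel subunit (6.64, SE 0.69, adjusted p = 0.00945), Itga8, an integrin (3.38, SE 0.41, adjusted p = 0.0141), Acta2 (2.47, SE 0.32, adjusted p = 0.0171), Tagln or SM22α (2.45, SE 0.31, adjusted p = 0.0153), Actg2, Myl9, Csrp1, Smtn and Synpo2. Kcnmb1 stood at 49.8 and 65.5 CPM in Myh11-high cells against 0.26 and 0.95 in Myh11-low cells. Among cycling cells 4 of the 19 passed (Itga8, Synpo2, Smtn and Kcnmb1), all 19 were positive and the median was 1.69.

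Growth-type SRF targets did not go with them. Of 8 immediate early genes none passed in edgeR without the block (1 at an unadjusted p under 0.05), none had a positive value, and the median was -0.71. With the block 6 were lower: Fos, Fosb, Egr1, Egr2, Egr3 and Ier2. Egr1 was 456 and 245 CPM in Myh11-high and 661 and 447 in Myh11-low cells, and Fos 283 and 101 against 383 and 318. Both genes are also known to respond to cell dissociation. The 12 listed dissociation genes, none of which passed, summed to 1407 and 973 CPM in Myh11-high and 1505 and 1179 in Myh11-low cells, and their median log2 fold change was 0.07. The part of dissociation in the Egr and Fos values was not tested.

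The partner lists gave fewer calls. SRF cofactors and ETS factors had 0 of 9 in edgeR without the block (3 at an unadjusted p under 0.05) and, with it, 3 higher (Csrp2, Crip2 and Gata6) and 2 lower (Elk3 and Elk4, ETS factors that compete with myocardin for SRF). None of 11 other KLF genes, 7 TEAD family genes and cofactors, 10 forkhead genes, 9 MYB family and DREAM genes or 6 MEF2 and class IIa deacetylase genes passed without the block, with 0 to 3 of each at an unadjusted p under 0.05. With it Klf3, Klf9, Klf15, Tead2, Vgll3 and Foxp2 were lower and Vgll4, Foxp1, Foxc2 and Hdac9 were higher, a share of these lists like the 22.7% of all genes that passed with the block. Of 10 YAP and TEAD targets 2 were higher: Ctgf (1.03, SE 0.15, adjusted p = 0.0216) and Ankrd1 (2.27, SE 0.39, adjusted p = 0.0336); their list median was 0.48, and with the block 7 were higher and 1 lower. Among 6 partners and relatives of TCF21, Tcf4, which encodes an E-protein, was lower (-1.41, SE 0.19, adjusted p = 0.0203) at 61.2 and 62.8 CPM against 142 and 207. Of the modulated VSMC genes 1 of 12 was lower, Ly6a (-2.59, SE 0.41, adjusted p = 0.0289). The sum of the 12 genes differed in direction between the libraries. It was 13094.5 CPM in Myh11-high and 10786.9 in Myh11-low cells of replicate 1, and 10254.5 and 12554.2 in replicate 2. Fibroblast markers summed to 632 and 155 CPM in Myh11-high and 883 and 692 in Myh11-low cells, and their part in the Tcf21 and Ly6a values was not tested.

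Mybl1 had company in the cycling cells. Of 9 MYB family and DREAM genes tested, 7 were higher than in Myh11-low cells (Mybl2, E2f1, E2f2, E2f7, E2f8, Lin9 and Lin54), with a median of 2.47 against -0.037 over all genes, and all 9 passed with the block. Mybl2, the paralogue of Mybl1, differed by 3.96 (SE 0.34, adjusted p = 0.000874). Between Myh11-high and Myh11-low cells none of the 9 passed, with or without the block (2 and 0 at an unadjusted p under 0.05), whereas Mybl1 did; E2f1 was 12.7 and 16.1 against 15.1 and 18.4 CPM.

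To ask which genes went with each factor cell by cell, cells with at least 1 UMI of the factor were paired with cells without one at the same depth (within 5%), in each library and without endothelial cells. This gave 275 and 474 pairs for Myocd, 267 and 318 for Tcf21, and 269 to 2766 for the others. UMIs were summed per library and set, and 4 sums were compared. In edgeR without a block the share of genes passing was 0% for 9 factors and 0.00861% for Tead1, 1 gene. Counts at an unadjusted p under 0.05 were 1350 for Myocd, 1162 for Mybl1 and 14 to 298 for the others. With the library as block, which leaves 1 residual degree of freedom before spread is shared across genes, 14.4% of genes passed for Myocd, 28.3% for Mybl1, 9.05% for Foxs1, 6.31% for Klf2, 6.17% for Mef2c, 4.19% for Tead1, 2.81% for Srf, 2.81% for Klf4, 0.856% for Tcf21 and 0.347% for Klf5. With partners of the same class as well, and the block, 5.27% of genes passed for Myocd, 11.1% for Mybl1 and 4.46% for Foxs1. That share was 5.52% for Klf2, 7.34% for Mef2c, 3.66% for Tead1 and 2.94% for Srf. For Klf4 it was 6.14%, for Tcf21 0.955% and for Klf5 1.24%. Calls and log2 fold changes of the pairs below are from the fit with the block, unless stated, and rest on it. Both sums of a library come from 1 culture, and whether same-library sums deviated together was checked for the class sums only.

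Myocd-positive cells held more of the contractile genes. Acta2 was 11363 CPM with and 4210 without Myocd in replicate 1, and 11921 and 3395 in replicate 2. Myh11 was 436 and 32.6, and 419 and 71.0. Both genes were several-fold higher with Myocd in each library. Of 20 contractile targets 19 were higher (median 1.46), among them Kcnmb1 (3.36), Myh11 (3.15), Itga8 (2.44, SE 0.09, adjusted p = 0.000132) and Acta2 (1.66, adjusted p = 0.000297). Immediate early genes were lower in 6 of 8 cases, and 6 of 9 fibroblast markers were lower, such as Dpt (-1.53, adjusted p = 0.0121). Of the other factors, Mybl1 (1.3) and Mef2c (0.80) were higher and Klf4 (-0.97) and Tcf21 (-2.37) were lower with Myocd.

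Class moved with this split. Myh11-high cells made up 28.7% and 40.1% of the Myocd-positive cells and 4.0% and 8.02% of their partners. When partners were taken from the same class as well, 15 of 20 contractile genes were still higher and none lower, with a median of 0.64; Acta2 differed by 0.67 (adjusted p = 0.0171) and Myh11 by 1.10 (adjusted p = 0.0337), while Kcnmb1 at 1.77 was not called (adjusted p = 0.0834). The gates leave a range of Myh11 within each class, so Myh11 is matched only in part.

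Klf4-positive cells had less of the contractile set. Acta2 was 5149 with and 6266 without Klf4 in replicate 1, and 4031 and 5796 in replicate 2. Myh11 was 75.3 and 120, and 87.9 and 142. The set with Klf4 was lower for both genes in each library. Of the 20 contractile targets 10 were lower and none higher (median -0.40), among them Kcnmb1 (-1.08), Myh11 (-0.68, SE 0.04, adjusted p = 0.00253) and Itga8 (-0.59). Myocd itself was 3.99 and 6.02, and 4.22 and 8.16 CPM, with a log2 fold change of -0.79 (adjusted p = 0.0388). Within class 12 of 20 were lower and none higher, at a smaller median of -0.17.

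Klf2 and Klf4 went together. Klf2 was 210 CPM with and 127 without Klf4 in replicate 1, and 125 and 81.2 in replicate 2 (0.68, adjusted p = 0.00253). Split by Klf2, Klf4 was 162 and 102, and 191 and 119 (0.69). The 2 genes were thus higher in each other's presence in both libraries. They differed in the contractile list, since with Klf2 13 of 20 genes were higher and none lower, such as Cnn1 (0.62) and Acta2 (0.29), and within class 11 were higher and 2 lower (Itga8 and Synpo2). Class moved with both splits. Myh11-high cells made up 7.49% and 9.76% of Klf2-positive cells and 4.31% and 7.27% of their partners. With Klf4 these shares were 5.58% and 6.82% against 8.80% and 10.4%. Cycling cells made up 22.9% and 22.6% against 33.5% and 30.1% in the Klf2 split, and 21.7% and 20.8% against 24.7% and 21.5% in the Klf4 split. Klf2-positive cells also held more of 7 of 8 immediate early genes and of 9 of 12 dissociation genes, such as Fosb (0.48), Atf3 (0.86) and Jun (0.52). With Klf4 3 of 12 dissociation genes were higher (Atf3, Jun and Dusp1) and no immediate early gene. The part of dissociation in the link between Klf2 and Klf4 was not tested.

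Klf5-positive cells gave few calls, with Ankrd1 (0.72, adjusted p = 0.0114), Tpm1 (0.30), Csrp1 (0.25) and Acta2 (0.22) higher. Klf5 lay at 2.28 to 12.7 CPM in the class sums, and 754 and 392 pairs stand behind these values.

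Srf-positive cells differed little from their partners. Of 20 contractile genes 8 were higher and none lower, of 8 immediate early genes 4 and of 10 YAP and TEAD targets 6, but the medians were 0.078, 0.099 and 0.13. Examples are Lmod1 (0.28), Fhl2 (0.24), Vcl (0.19) and Egr1 (0.12). Differences were small, and in replicate 1 Myh11 was 80.8 CPM with and 82.6 without Srf. Acta2 was 5481 with and 5382 without, and 4597 and 4328, a gap far smaller than the one seen with Myocd.

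Tead1-positive cells held more of the YAP and TEAD targets. Of 10 listed, 6 were higher and none lower: Amotl2 (0.69, adjusted p = 4.18e-11), Crim1 (0.57), Ankrd1 (0.38), Lats2 (0.37), Cyr61 (0.32) and Ctgf (0.31), with a median of 0.34. The 6 genes were called again within class. The rise was not particular to this list. Srf, Klf4, Klf2, Klf5, Tcf21, Foxs1 and Mef2c were also higher with Tead1 in both libraries. Srf, for instance, was 39.3 CPM with and 23.7 without in replicate 1, and 26.8 and 17.2 in replicate 2. Myocd was lower in both, at 4.67 and 6.23, and 4.04 and 5.60, and Mybl1 differed in direction between the libraries. These directions of the factors are read from CPM, and no test of them is given here. Some rest on few UMIs: Myocd had 15 and 20 in replicate 1 and 39 and 54 in replicate 2. Tcf21 had 12 and 4, and Klf5 30 and 13, in replicate 1. The Mef2c gap was small, at 176 and 166 CPM in replicate 1 and 124 and 118 in replicate 2. Amotl2, Crim1, Ankrd1 and Lats2 are among the promoters with a GGAATG core printed above; such a core was in every promoter available for the list, so its presence does not separate the 6 from the rest. Of the contractile genes only Vcl (0.48) and Tpm1 (0.33) were higher. Both carry the core as well, as do 5 contractile genes that were not called higher. Cells without Tead1 were few and shallow, with medians of 9573.5 and 10423 UMIs. All 5 macrophage markers tested were lower in the Tead1-positive cells (C1qa by -9.79 and Mrc1 by -4.89, on the log2 scale), as was Mmp12, the 1 gene called without the block (-8.09, adjusted p = 0.0248, named after its value was seen). The 8 macrophage markers listed summed to 3.01 to 16.3 CPM over the 4 classes, and Ptprc, C1qa and Fcgr1 were at 0 in 5 of the 8 sums. Their part in the target differences was not tested.

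Mef2c-positive cells were higher in 12 of 20 contractile genes and lower in none (median 0.34), and in 11 of 20 within class. Des (1.79), Kcnmb1 (1.58), Itga8 (1.52) and Myh11 (1.05) had the widest gaps named. Myh11 was 76.1 CPM with and 46.3 without Mef2c in replicate 1, and 119 and 48.6 in replicate 2. Acta2 was 5102 and 4867, and 5081 and 3098, and it was not called (adjusted p = 0.0524). Tagln and Cnn1 differed in direction between the libraries. Tagln was 2445 with and 2509 without Mef2c in replicate 1, and 2645 and 1588 in replicate 2. Cnn1 was 141 and 162, and 80.5 and 45.0. Myh11-high cells made up 5.32% and 9.77% of the Mef2c-positive cells and 3.40% and 3.70% of their partners. All 5 pericyte markers tested were higher, such as Rgs5 (0.81), in this split and within class. Myocd was 3.70 and 1.19, and 6.71 and 1.56 CPM (1.96, adjusted p = 0.000283), so Myocd and Mef2c were found together in both libraries and in both directions of the split.

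Foxs1-positive cells were higher in 14 of 20 contractile genes, lower in 1 (Synpo2), and higher in 8 of 10 YAP and TEAD targets, such as Ankrd1 (0.49). Acta2 was 5584 with and 4429 without, and 5148 and 3872 (0.42). The 6 cycling gate genes were all lower, Top2a by -0.55, and Mybl1 with them (-0.34). Klf5 (0.97), Mef2c (0.49), Klf2 (0.32), Klf4 (0.25), Srf (0.21) and Tead1 (0.17) were higher. C1qa and C1qb were lower by -7.81 and -7.15, and the part of macrophage cells in the Foxs1 values was not tested. Class moved with this split. Cycling cells made up 21.3% and 26.0% of the Foxs1-positive cells and 28.8% and 29.8% of their partners. Myh11-high cells made up 6.37% and 9.88% against 4.69% and 8.34%. The list counts above are from pairs matched on depth only. With partners of the same class, 614 genes passed in place of 1248.

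Tcf21-positive cells held more of some matrix genes. Of 9 adventitial fibroblast markers 3 were higher and none lower, with a median of 0.61. Dcn (1.21, adjusted p = 0.00123), Lum (1.5), Smoc2 (1.24) and Dpt (1.00) were higher, and Myh11 (-1.11) and Kcnmb1 (-1.97) were lower. Myh11 was 46.6 CPM with and 86.1 without Tcf21 in replicate 1, and 36.4 and 93.1 in replicate 2, lower with Tcf21 in both. Within class Dcn (1.09), Lum (1.31) and Dpt (0.75) were still called, and no contractile gene was. Acta2 did not go with Myh11 here, at 5259 and 5068, and 3843 and 3732 CPM.

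Mybl1-positive cells were mostly cycling cells, 80.2% and 72.8% of them, against 32.9% and 22.4% of their partners. Of 9 MYB and DREAM genes 8 were higher, such as Mybl2 (1.75) and E2f1 (0.89), and 6 within class. Of 20 contractile genes 13 were higher and none lower, and within class 14 were (median 0.29). Myh11 was 118 with and 65.0 without Mybl1, and 175 and 80.4 (0.97, and 0.94 within class). Myocd was 5.74 and 2.65, and 9.14 and 4.20 CPM (1.09, adjusted p = 0.000124). The link of Mybl1 with Myh11 was thus seen in the class comparison, among cycling cells and in the pairs, and its link with Myocd in the pairs. Among cycling cells the Mybl1 difference missed the threshold without the block and passed with it. These comparisons use the same cells and are not independent of each other.

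**Figure D4:**
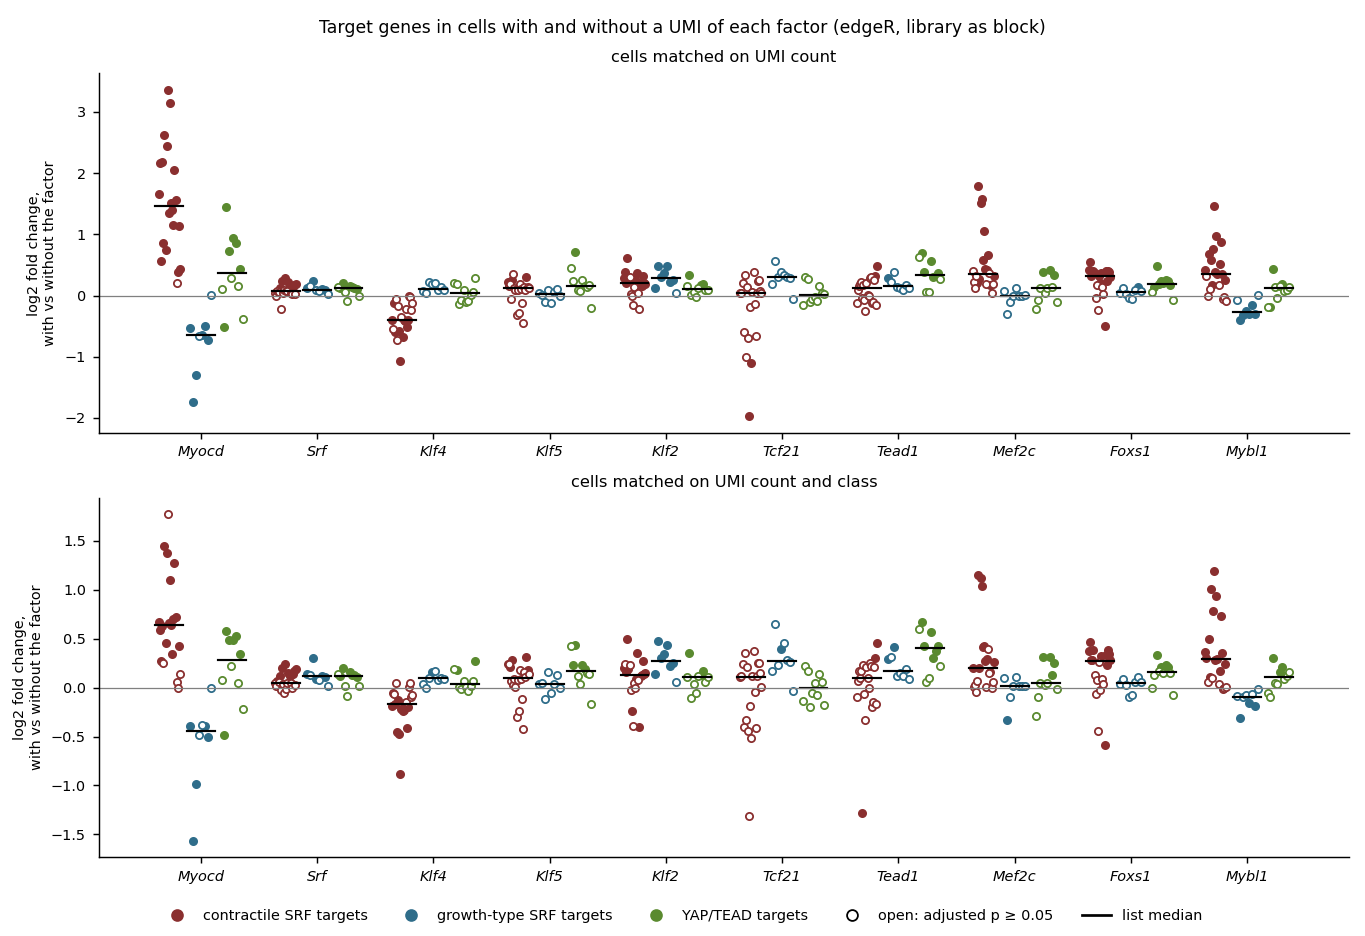
Log2 fold change (vertical axes) of target genes between cells with and without a UMI of each factor (horizontal axes), with cells paired on depth (upper panel) and on depth and class (lower panel). Each point is 1 gene of the contractile (red), immediate early (blue) or YAP and TEAD (green) list, filled where adjusted p was under 0.05 with the library as block, and bars are list medians; the contractile median was 1.46 with Myocd, -0.40 with Klf4 and 0.078 with Srf.

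As a description of shared patterns, each factor was compared with all genes of mean CPM of at least 5 over 14 sums (2 libraries by endothelial cells and 6 sets of cycling state and Myh11 count). The sums of a library share its depth and culture, so high values of Pearson's r are common. Myocd was most like Il17b (r = 0.982), Dusp27 (0.982) and Kcnmb1 (0.980), and Mybl1 most like Calm2 (0.980). Tead1 was most like Vasn (0.991) and Col1a1 (0.987), and Foxs1 like Col1a1 (0.980), both of which are genes of matrix-forming cells. Mef2c was nearest to Nacad (0.964), Klf4 to Ctps2 (0.954), Srf to Plekhg2 (0.954) and Klf2 to Usp53 (0.937). Klf5 was nearest to Mkl1 (0.964), the gene of another SRF coactivator, and Tcf21 to Pi4ka (0.918).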

How the data were processed

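The deposited files hold counts: per the file headers, the authors ran Cell Ranger (version 3.0.2 on the first library, 3.1.0 on the second; both samples are labelled 3.0.2, and mm10) to write UMI counts per gene and barcode for all barcodes, without normalization. Barcodes were filtered as in the study, by 300 genes, 3000 UMIs and 20% mitochondrial UMIs. Library totals were 127949633 and 132561822 UMIs. No doublet caller was run, and doublets may remain. An alternative left out the 5% deepest cells.

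UMIs were summed per library and class, and tested with edgeR 4.0.16 (R 4.3.3; quasi-likelihood F test, TMM, filterByExpr, adjusted p threshold 0.05); SE is the log2 fold change divided by the square root of F. Genes of the gates were left out of class tests, and the splitting factor out of its own test. The 4 classes entered 1 fit. Paired sums came from 1 culture per library, and deviations from class means correlated between same-library sums in all 6 class pairs (0.224 to 0.784 over 14119 genes), so the library was also fitted as a block. Alternatives were DESeq2 1.42.0, no TMM, no filter, other gates and cells, and each library alone. Shares were thinned to 3000 UMIs per cell by the hypergeometric expectation. Nothing beyond the label of biological replicate says how separate the cultures were, so p-values speak for these 2 libraries only. Without the block they measure the spread between the 2 libraries. With it they measure how much the differences within a library varied between the 2.

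The genes, lists and tests were chosen with earlier results of these data known. Named were the 10 factors, genes of the lists, in each split at most 6 list genes by p plus those that show a list or comparison, and the 3 most alike genes by r, of which 1 to 3 are given. Promoters came from RefSeq (GRCm38.p6), and 30934 of 31053 gene IDs matched GENCODE M21.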

Additional observations from a re-analysis of the deposited data

How the results depend on the processing

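Counts of genes passing moved by over 1.5 times in several settings. Between Myh11-high and Myh11-low cells, 441 genes became 3196 with the replicate block, 770 without a filter, 1277 with DESeq2 and 876 with the gate in CPM. Among cycling cells 249 became 2608, 392, 870 and 713 in the same order. Between cycling and Myh11-low cells 719 became 3133 with the block and 1217 with DESeq2, between endothelial and other cells 3381 became 5213 with the block, and DESeq2 called 1 gene for the interaction. With the block, the splits by factor gave 1723 genes for Myocd, 392 for Srf, 377 for Klf4, 44 for Klf5, 873 for Klf2, 99 for Tcf21, 487 for Tead1, 815 for Mef2c, 1248 for Foxs1 and 3749 for Mybl1, and with class-matched pairs and the block, chosen after seeing the data, 627, 409, 821, 157, 762, 110, 425, 970, 614 and 1454 in that order. The share of higher calls between Myh11-high and Myh11-low cells was 72.8%, 62.9% without TMM and 51.2% with the block. Signs turned for uncalled genes in the Myh11 comparison: Tead1 (-0.065 without TMM, -0.014 without a filter, -0.022 with the gate in CPM, -0.095 to -0.041 with 1 library left out) and, over the values with 1 library left out, Klf5 (-0.37 to 0.55) and Foxs1 (-0.031 to 0.30). They also turned for Klf4 in endothelial cells (-0.28 to 0.077) and Klf2 among cycling cells (-0.54 to 0.089), and the values without replicate 1 were the lowest of each range. The cause was not tested. A single library leaves no residual degrees of freedom, so those values carry no test. No contractile gene turned sign. Genes of few UMIs (Myocd, Tcf21, Klf5) limit what these depths can show.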
